A study of Homo sapiens with 36 samples.

Results

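The lung alveolar lineage genes described here are the 10 genes NKX2-1, SFTPA1, SFTPA2, SFTPB, SFTPC, SFTPD, NAPSA, SLC34A2, ABCA3 and LAMP3, out of 66366 named genes in the files. They were chosen by name as genes of the alveolar type 2 cell. The rule uses no measured value, but the choice was made with earlier results of these data known. Each name matched 1 entry in every library, and none had a further numbered copy. RNA from 36 libraries of 4 human non-small cell lung cancer lines was sequenced, with 3 libraries in each of 12 groups. A549 is wild-type for EGFR, H3255 carries the L858R change, H1975 carries L858R together with T790M, and H820 combines an exon 19 deletion with T790M. Every line received MinE07, an aptamer (a structured oligonucleotide selected to bind a target) directed at EGFR, the control aptamer C36 in an extended version, or the vehicle, DPBS with magnesium. Aptamers were given at 3 µM for 24 h in medium with 1% serum, with RPMI used for the EGFR-mutant lines and DMEM for A549. The medium and the A549 line therefore cannot be told apart, and each line stands for 1 genotype in 1 cell background. The series record calls the 3 experiments biologically independent.

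Alveolar type 2 cells line the air sacs of the lung, make pulmonary surfactant and renew the alveolar epithelium. NKX2-1 (also called TTF-1) is the homeodomain transcription factor that directs lung epithelial identity and surfactant gene transcription, and it is used together with napsin A as a diagnostic marker of lung adenocarcinoma. SFTPB and SFTPC encode the small hydrophobic surfactant proteins that spread the lipid film, whereas SFTPA1, SFTPA2 and SFTPD encode collectins, secreted lectins of innate defence. NAPSA encodes the aspartic protease that helps to process the surfactant protein B precursor. SLC34A2 is the sodium-phosphate cotransporter of the apical membrane, ABCA3 is the lipid pump of the lamellar body (the organelle that stores surfactant), and LAMP3 is a lamellar body membrane protein that mature dendritic cells also carry.

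The windows upstream of SFTPA1, SFTPA2 and ABCA3 are printed because these genes had the largest changes of the 10 between MinE07 and vehicle in H3255. Each window holds the 250 bases before the RefSeq start site (build GRCh38.p14), read 5′ to 3′ on the gene's strand. Capitals mark the NKX2-1 core CTCAAG and the forkhead motif TGTTTAC, each searched on both strands (reverse complements CTTGAG and GTAAACA), together with the forkhead variant TGTTTGC (reverse complement GCAAACA). The SFTPA1 window lies at chr10:79610689-79610938 on the plus strand, the SFTPA2 window at chr10:79560408-79560657 on the minus strand, and the ABCA3 window at chr16:2340729-2340978 on the minus strand.
SFTPA1: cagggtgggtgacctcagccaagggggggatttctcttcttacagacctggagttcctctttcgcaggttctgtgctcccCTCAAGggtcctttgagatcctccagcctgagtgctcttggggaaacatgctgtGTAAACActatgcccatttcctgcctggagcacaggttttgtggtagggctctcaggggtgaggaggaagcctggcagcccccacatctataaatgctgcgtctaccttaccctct
SFTPA2: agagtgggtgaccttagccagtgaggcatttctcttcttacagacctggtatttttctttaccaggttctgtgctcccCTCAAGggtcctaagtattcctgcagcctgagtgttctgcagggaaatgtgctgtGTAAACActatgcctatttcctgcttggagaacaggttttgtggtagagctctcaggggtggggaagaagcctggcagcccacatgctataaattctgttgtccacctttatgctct
ABCA3: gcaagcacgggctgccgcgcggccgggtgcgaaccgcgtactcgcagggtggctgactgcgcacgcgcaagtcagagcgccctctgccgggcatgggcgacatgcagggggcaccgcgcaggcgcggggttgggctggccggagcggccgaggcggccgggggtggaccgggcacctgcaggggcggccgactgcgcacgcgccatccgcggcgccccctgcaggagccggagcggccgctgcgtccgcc

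The SFTPA1 and SFTPA2 windows were alike at 214 of 255 aligned positions (83.9%), and each held 1 NKX2-1 core and 1 forkhead match. The NKX2-1 core began 170 bases before the start in SFTPA1 (position -170) and at position -172 in SFTPA2. No such letters were in the ABCA3 window. Over the 13 windows that the table holds for 8 of the 10 genes, the NKX2-1 core was in 3 windows of 3 genes (SFTPA1, SFTPA2 and NAPSA), and a forkhead match was in 5 windows of 4 genes (SFTPA1, SFTPA2, NKX2-1 and SLC34A2). Of all 35116 windows of this length, 10.37% held the NKX2-1 core and 6.09% held either forkhead form. The NAPSA match, at position -196, belongs to a start that lies upstream of the gene as GENCODE v29 draws it, and the window of the other NAPSA start had none. A match describes letters only. It shows no binding.

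In GENCODE v29 (build GRCh38), SFTPA1 lies on chromosome 10 from 79610939 to 79615455 on the plus strand and SFTPA2 from 79555852 to 79560402 on the minus strand, with SFTPD further along the same chromosome from 79937740 to 79982614. NKX2-1 lies on chromosome 14 (36516392 to 36521149), NAPSA on chromosome 19 (50358477 to 50365830), ABCA3 on chromosome 16 (2275881 to 2340746), SFTPB on chromosome 2 (85657314 to 85668741), SLC34A2 on chromosome 4 (25648011 to 25678748) and LAMP3 on chromosome 3 (183122213 to 183163839). These are whole protein-coding genes, exons and introns together.

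The files give FPKM, fragments scaled by gene length and library size, so levels can be set side by side between genes. They hold no counts, so sequencing depth was not measured. A relative depth was estimated indirectly, from the commonest ratio of low FPKM values between each library and a reference library, across lines. By this estimate the shallowest library stood at 0.591 and the deepest at 1.386 of the median, and 13228 to 14265 genes exceeded 1 FPKM per library. The lowest estimate was in a vehicle library of H3255. In H820, 2 MinE07 libraries had the lowest summed FPKM of the series. A value of 0 is described as listed at 0, since it can be a failed estimate.

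More of the 10 genes were expressed in H3255 than in the other lines. In vehicle, 9 of the 10 genes had a mean of at least 1 FPKM in H3255, 4 in H820 (NKX2-1, SLC34A2, ABCA3 and LAMP3), 2 in H1975 (NKX2-1 and ABCA3) and 2 in A549 (ABCA3 and LAMP3). The sum of the 10 genes was 388.9 ± 8.50 FPKM (SD, n = 3) in H3255, 44.4 ± 1.39 in H820, 26.3 ± 0.943 in H1975 and 13.9 ± 2.36 in A549. The composition differed as well. NAPSA made up 41.03% of the sum in H3255, NKX2-1 made up 79.52% in H820 and 75.61% in H1975, and LAMP3 made up 77.58% in A549. These are bulk libraries, in which fewer cells of a kind and less RNA per cell cannot be told apart.

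**Figure D1:**
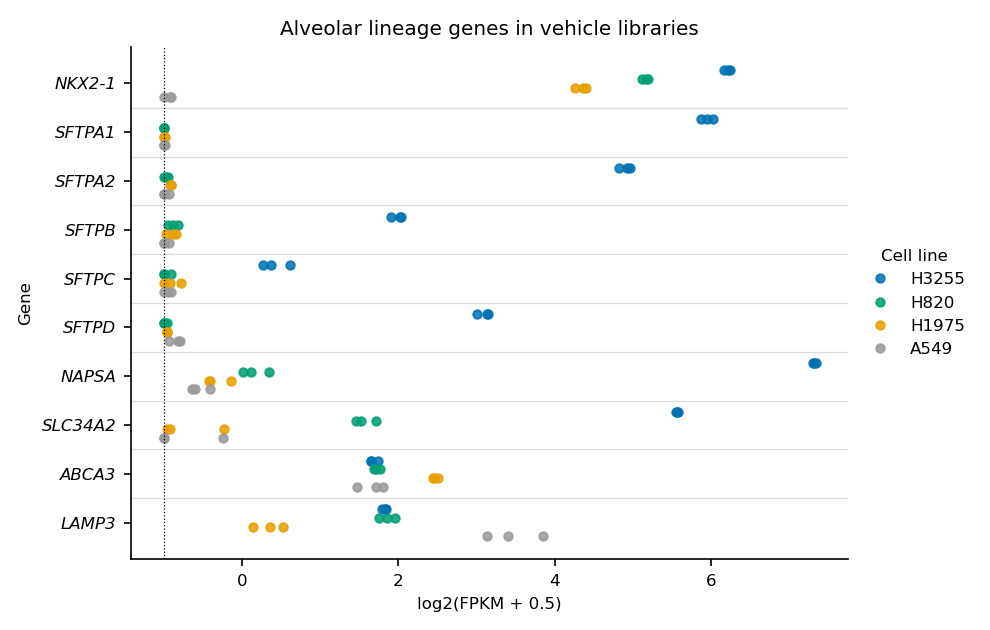
Levels of the 10 alveolar lineage genes in the vehicle libraries, as log2(FPKM + 0.5) on the horizontal axis, with 1 point per library and a colour per cell line. The dotted line marks 0 FPKM. H3255 lies to the right of every other line for NKX2-1, the surfactant proteins, NAPSA and SLC34A2, whereas ABCA3 is highest in H1975 and LAMP3 in A549.

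NKX2-1, the lineage transcription factor, was graded across the lines. Its vehicle libraries read 71.1, 73.7 and 75.4 FPKM in H3255, 34.2, 36.1 and 35.6 in H820, 20.7, 18.7 and 20.2 in H1975, and at most 0.0332 in A549. No library of 1 line overlapped another line. Every neighbouring pair in this order differed in limma fitted over all 36 libraries and 12 groups, on the log2(FPKM + 0.5) scale. H3255 was 1.04 ± 0.0446 (SE) above H820 (adjusted p = 2.63e-19), H820 was above H1975 by 0.82 (H1975 minus H820 -0.82, adjusted p = 1.61e-16), and H1975 was above A549 (adjusted p = 4.82e-37), where NKX2-1 was too near 0 for a fold. In H3255, NKX2-1 ranked 702 from the top of 13305 genes with a vehicle mean of at least 1 FPKM, and in H820 it ranked 1469 of 13726. The lines differed at most genes, so a call between lines is the usual outcome here. Of 14566 genes, 87.1% were called between H3255 and A549 at an adjusted p under 0.05, 86.3% between H3255 and H820, 86.1% between H3255 and H1975, 85.3% between H820 and A549, 84.6% between H1975 and A549, and 83.8% between H1975 and H820.

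The secreted surfactant proteins were almost confined to H3255 among these lines. SFTPA1 read 58.1, 64.6 and 61.5 FPKM in the H3255 vehicle libraries, was listed at 0 in all 9 H820 libraries, and did not exceed 0.322 FPKM in any library of the other lines. The highest of those, for SFTPA1 as well as for SFTPA2 and NAPSA in H1975, was C36 replicate 2. SFTPA2 had a mean of 29.5 ± 1.52 FPKM in H3255 vehicle (SD, n = 3) and at most 0.153 in any library elsewhere. SFTPD, the other collectin, had 8.08 ± 0.433 in H3255 and at most 0.160 elsewhere. SFTPB was far lower than the collectins SFTPA1 and SFTPA2 in H3255, at 3.48 ± 0.192 FPKM, and did not exceed 0.0733 elsewhere. SFTPC, the marker most restricted to type 2 cells, was low even in H3255. It read 0.707, 0.800 and 1.04 FPKM in vehicle, reached 1 FPKM in 2 of the 9 H3255 libraries and was at most 0.133 in the other lines. H3255 thus combined abundant collectin and NAPSA RNA with little RNA of the hydrophobic surfactant proteins. These levels are given as a description. No fold or test between lines is given for the surfactant proteins and NAPSA, because a test required a mean of at least 1 FPKM over the 36 libraries, which SFTPA1, SFTPA2, SFTPD and NAPSA reached only through H3255 and SFTPB and SFTPC did not reach.

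SFTPA1 and SFTPA2 are closely related paralogs, so reads may be split between them. Of the 2113 windows of 100 bases in the longest protein-coding SFTPA1 transcript, 193 (9.1%) occur unchanged in some GENCODE v29 transcript of SFTPA2. The ratio of SFTPA1 to SFTPA2 in H3255 ran from 2.06 to 2.10 in the vehicle libraries, from 2.24 to 2.33 in the C36 libraries and from 2.16 to 2.34 in the MinE07 libraries, so the vehicle libraries lay below both aptamer groups. The part of read sharing in these values was not tested. How the authors' tool shared such reads is not given in the sources used here.

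NAPSA, the napsin A protease gene, was the most abundant of the 10 in H3255, at 158, 162 and 159 FPKM in vehicle, where it ranked 293 from the top. Vehicle means elsewhere were 0.623 ± 0.140 in H820, 0.306 ± 0.0900 in H1975 and 0.186 ± 0.0612 in A549 (SD, n = 3). NAPSA was thus under 1 FPKM on average in each line but H3255. SLC34A2 stood at 46.85 ± 0.395 FPKM in H3255 and 2.48 ± 0.284 in H820. In H1975 and A549 its vehicle means of 0.135 and 0.118 each rested on 1 library, at 0.357 and 0.350, with the others at or under 0.0301. SLC34A2 in H3255 was 3.996 ± 0.153 (SE) above H820 on the log2 scale (adjusted p = 1.03e-19 in limma).

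The lamellar body genes did not follow NKX2-1. ABCA3 was highest in H1975, at 5.00, 5.22 and 4.97 FPKM in vehicle, against 2.74 to 2.90 in H820, 2.64 to 2.84 in H3255 and 2.28 to 2.99 in A549. H1975 was 0.75 to 0.81 above the other lines on the log2 scale (adjusted p from 9.26e-14 to 5.77e-13 in limma). H820, A549 and H3255 were not separated from each other, with differences of at most 0.06 and adjusted p of 0.346 to 0.814, although ABCA3 in H820 was called above A549 without A549 vehicle replicate 2 (0.13, adjusted p = 0.0469). LAMP3 was highest in A549, the line with almost no NKX2-1. Its vehicle libraries there read 13.9, 8.27 and 10.1 FPKM, above all others although widely spread. H820 (3.12 ± 0.256) and H3255 (3.05 ± 0.0668) were not distinguished (H3255 minus H820 -0.03, 95% interval -0.26 to 0.21, adjusted p = 0.834), and H1975 was lowest at 0.777 ± 0.166 FPKM (SD, n = 3). In LAMP3, H820 minus A549 was -1.61 and H3255 minus A549 was -1.64 (adjusted p = 1.11e-13 and 6.75e-14), so A549 was above both.

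In H3255, most of the alveolar lineage genes were higher with MinE07 than with either control. Between MinE07 and C36, 7 of the 9 genes tested were called, all higher: NKX2-1, SFTPA1, SFTPA2, SFTPD, NAPSA, ABCA3 and LAMP3. Over all 13421 genes tested, 36.7% were called and 16.6% were called higher. The median log2 change of the 9 genes was 0.34, beside -0.01 over all genes. The sum of all 10 genes was 469.5 ± 20.4 FPKM in MinE07 libraries, 397.9 ± 7.28 in C36 libraries and 388.9 ± 8.50 in vehicle libraries (SD, n = 3). At 8 of the 9 genes every MinE07 library lay above every C36 library, which held for 22.8% of all genes.

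**Figure D2:**
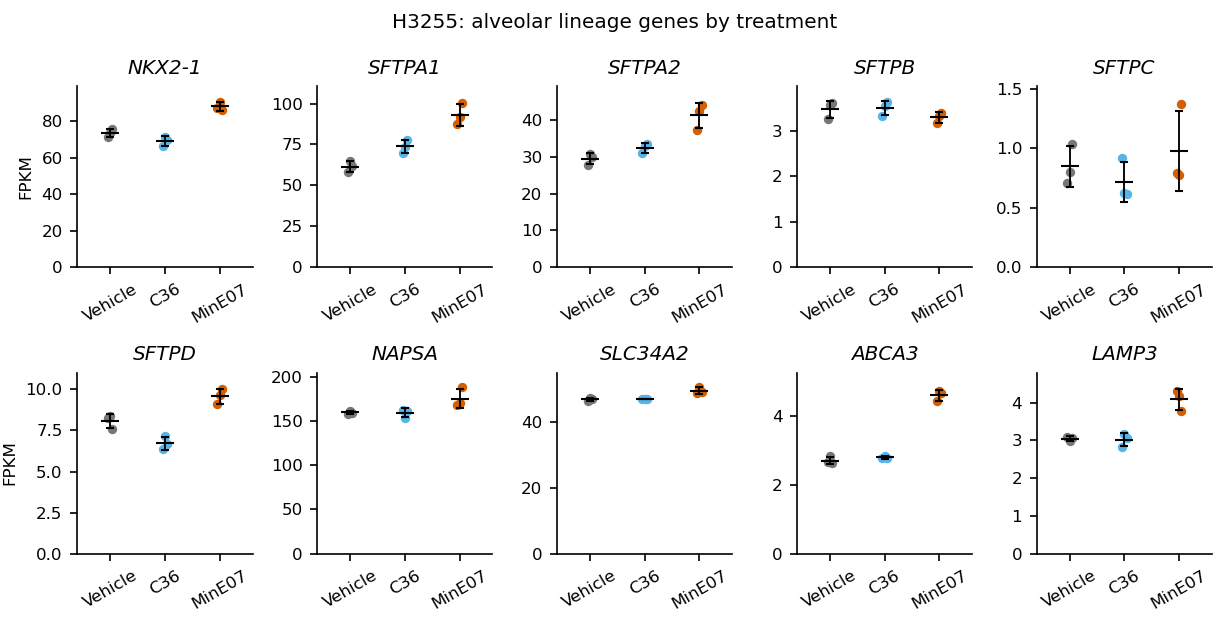
FPKM of each alveolar lineage gene in H3255 by treatment, with 1 point per library, a horizontal bar at the mean and error bars of 1 SD (n = 3). Every vertical axis starts at 0. The MinE07 libraries lie above both controls for NKX2-1, SFTPA1, SFTPA2, SFTPD, NAPSA, SLC34A2, ABCA3 and LAMP3, and overlap them for SFTPB and SFTPC.

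NKX2-1 itself read 87.4, 90.6 and 86.0 FPKM with MinE07. The C36 libraries read 66.2, 71.4 and 69.7, and the vehicle libraries 71.1, 73.7 and 75.4. All MinE07 libraries were above all controls. The log2 change was 0.35 ± 0.0377 (SE) against C36 (adjusted p = 6.85e-05 in limma) and 0.26 ± 0.0377 against vehicle (adjusted p = 0.000406).

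The largest change among the 10 was that of ABCA3, the lamellar body lipid pump. Its libraries read 4.44, 4.74 and 4.68 FPKM with MinE07, whereas C36 gave 2.78, 2.84 and 2.80 and vehicle gave 2.66, 2.84 and 2.64. The controls sat together and the MinE07 libraries stood clear of them. The log2 change of ABCA3 was 0.63 ± 0.0448 (SE) against C36 (adjusted p = 3.7e-06 in limma), a size that 200 of 13421 genes (1.49%) reached or passed, and 0.67 against vehicle (adjusted p = 2.26e-06). LAMP3, of the same organelle, read 4.31, 4.18 and 3.77 FPKM with MinE07, whereas C36 gave 2.82, 3.16 and 3.06 and vehicle gave 3.101, 2.97 and 3.07. It rose by 0.38 against C36 (adjusted p = 0.000468) and by 0.37 against vehicle (adjusted p = 0.000558).

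The collectins also rose. SFTPA1 read 58.1, 64.6 and 61.5 FPKM with vehicle, 70.0, 73.4 and 77.8 with C36, and 87.3, 91.7 and 100.4 with MinE07. The 3 groups formed a ladder without overlap, vehicle lowest and MinE07 highest. The MinE07 change was 0.33 ± 0.0587 (SE) against C36 (adjusted p = 0.00152 in limma) and 0.60 against vehicle (adjusted p = 3.55e-05). The C36 step over vehicle was 0.26 and was not called (adjusted p = 0.0821). SFTPA2, whose upstream window resembles that of SFTPA1, read 27.9, 30.8 and 29.9 with vehicle, 30.9, 32.8 and 33.4 with C36, and 37.3, 42.4 and 44.0 with MinE07, with changes of 0.34 against C36 (adjusted p = 0.0017) and 0.47 against vehicle (adjusted p = 0.000219). SFTPD showed another order. It read 8.28, 8.36 and 7.58 FPKM with vehicle, 6.37, 7.16 and 6.68 with C36, and 9.11, 9.64 and 10.0 with MinE07, so C36 lay below vehicle. SFTPD changed by 0.48 ± 0.0541 against C36 (adjusted p = 8.54e-05) and by 0.23 against vehicle (adjusted p = 0.00641). The C36 difference from vehicle, -0.25, was not called (adjusted p = 0.0821).

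NAPSA and SLC34A2 changed least among the genes that were higher. NAPSA read 168, 170 and 188 FPKM with MinE07, against 162, 153 and 162 with C36 and 158, 162 and 159 with vehicle, a change of 0.14 against C36 (adjusted p = 0.0321 in limma) and 0.13 against vehicle (adjusted p = 0.0374). Replicate 3 of MinE07 stood above the others. Without it the NAPSA change against C36 was 0.09 (adjusted p = 0.0725), and leaving out any 1 of the C36 libraries gave 0.11 to 0.15 (adjusted p = 0.0519 to 0.114). SLC34A2 read 48.7, 50.8 and 49.3 with MinE07, against 47.0, 47.1 and 46.9 with C36 and 46.4, 47.2 and 46.9 with vehicle. Its change of 0.08 ± 0.0277 was not called against C36 (adjusted p = 0.0534) and was called against vehicle (0.08, adjusted p = 0.0418). Without MinE07 replicate 1 the SLC34A2 change against C36 was 0.09 and was called (adjusted p = 0.0417). The vehicle call for SLC34A2 was lost on leaving out any 1 of the 9 libraries but MinE07 replicate 1 (adjusted p = 0.0549 to 0.151), and also with no filter on low values (adjusted p = 0.0612), after rescaling by medians of ratios (0.273) and in 1 fit of all 36 libraries (0.735). The vehicle call for NAPSA was lost on leaving out MinE07 replicate 3, C36 replicate 3 or any vehicle library (adjusted p = 0.0506 to 0.0945), and under the same 3 settings (adjusted p = 0.119, 0.0992 and 0.524).

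No rise was called for the hydrophobic surfactant protein genes. SFTPB read 3.17, 3.33 and 3.40 FPKM with MinE07 and 3.34, 3.55 and 3.65 with C36, a difference of -0.08 (95% interval -0.19 to 0.04, adjusted p = 0.267 in limma). SFTPC, with means of 0.849 ± 0.172 FPKM with vehicle, 0.716 ± 0.172 with C36 and 0.977 ± 0.340 with MinE07 (SD, n = 3), overlapped between all groups and was not tested.

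Against vehicle, MinE07 gave 8 calls among the 9 genes in H3255, all higher, where 38.6% of all genes were called and 21.4% were called higher. Both MinE07 comparisons share the MinE07 libraries. C36 against vehicle gave 0 calls among the 9 genes in limma (background 0.305%), with 3 genes at an unadjusted p under 0.05, as had 15.9% of all genes.

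**Figure D3:**
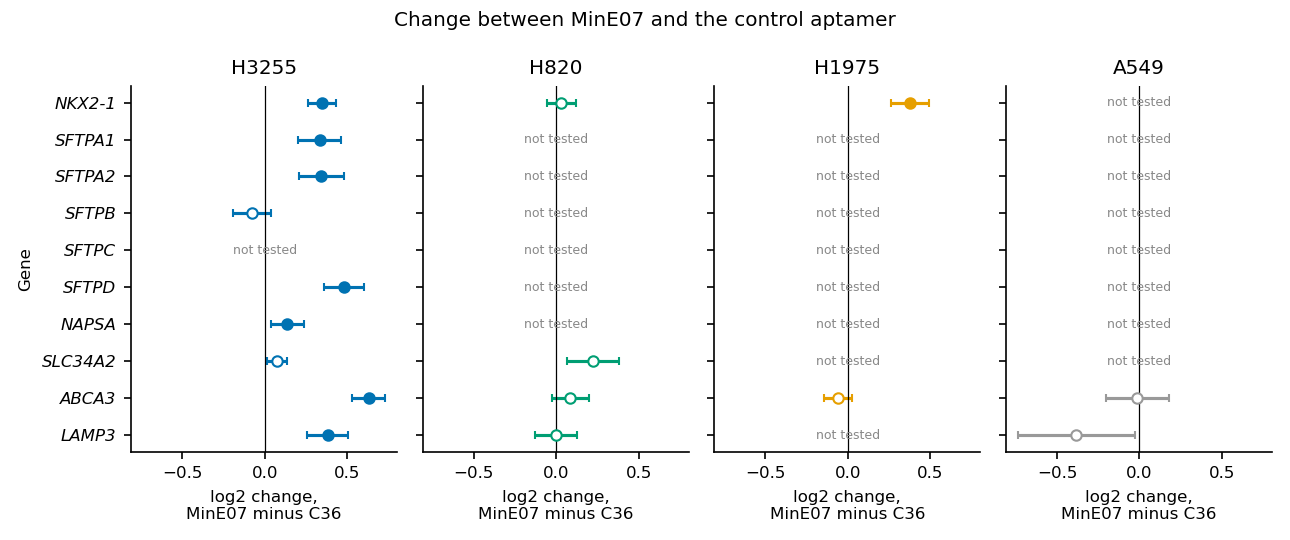
Change between MinE07 and C36 for each gene and cell line, as the limma difference in mean log2(FPKM + 0.5) with its 95% interval. Filled points were called at an adjusted p under 0.05, open points were not, and genes with a mean under 1 FPKM in a line were not tested. H3255 has 7 filled points, H1975 has 1 (NKX2-1), and H820 and A549 have none.

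H1975 offered only NKX2-1 and ABCA3 for testing, and NKX2-1 rose with MinE07 there. Its libraries read 23.1, 22.04 and 21.99 FPKM with MinE07, against 16.6, 16.4 and 18.5 with C36 and 20.7, 18.7 and 20.2 with vehicle. The order was C36, vehicle, MinE07, without overlap. Against C36 the NKX2-1 change was 0.37 ± 0.0515 (SE, adjusted p = 0.00118 in limma), so 1 of 2 genes was called beside 19.9% of 14181 genes. Against vehicle it was 0.17 (adjusted p = 0.0392), again 1 of 2 beside 23.7%. The vehicle call was lost on leaving out any MinE07 library or vehicle replicate 2 or 3, with changes of 0.13 to 0.18 and adjusted p of 0.0695 to 0.128, and with no filter on low values (adjusted p = 0.142) or after rescaling by medians of ratios (adjusted p = 0.0514). C36 against vehicle called neither gene (background 0.233%), with NKX2-1 at -0.21 (adjusted p = 0.12). Of the 2 genes, 1, NKX2-1, had an unadjusted p under 0.05, as had 14.3% of all genes. ABCA3 stayed between 4.89 and 5.34 FPKM in all 9 H1975 libraries. Its difference between MinE07 and C36 was -0.06 (95% interval -0.14 to 0.02, adjusted p = 0.29).

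In H820, NKX2-1 was lower with either aptamer than with vehicle. It read 34.2, 36.1 and 35.6 FPKM with vehicle, 28.6, 30.2 and 29.4 with C36, and 30.7, 28.3 and 31.1 with MinE07. Both aptamer groups lay below every vehicle library and overlapped each other. NKX2-1 differed from vehicle by -0.26 ± 0.0388 with C36 (SE, adjusted p = 0.00888 in limma) and by -0.23 with MinE07 (adjusted p = 0.0138), and MinE07 and C36 were 0.03 apart (95% interval -0.06 to 0.12, adjusted p = 0.82). The C36 call for NKX2-1 was lost without C36 replicate 1 (-0.24, adjusted p = 0.0507) and the MinE07 call without vehicle replicate 2 (-0.22, adjusted p = 0.06). SLC34A2 moved the other way. It read 2.37, 2.26 and 2.80 FPKM with vehicle, 3.13, 3.02 and 2.93 with C36, and 3.91, 3.45 and 3.49 with MinE07, again a ladder without overlap. SLC34A2 rose by 0.47 ± 0.0700 between vehicle and MinE07 (adjusted p = 0.00776), and its C36 step of 0.25 was not called with all libraries (adjusted p = 0.0918) but was without vehicle replicate 3 (0.32, adjusted p = 0.0373). The remaining genes tested, ABCA3 and LAMP3, ranged from 2.74 to 3.38 FPKM and from 2.60 to 3.38 FPKM over the 9 libraries and were not called in any comparison. Between vehicle and MinE07, ABCA3 changed by 0.17 (95% interval 0.06 to 0.29, adjusted p = 0.105 in limma). LAMP3 changed by -0.17 there (95% interval -0.29 to -0.04, adjusted p = 0.158).

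In counts, MinE07 against vehicle called 2 of 4 genes in H820 (background 3.01%) and C36 against vehicle called 1 of 4 (2.84%). An unadjusted p under 0.05 was found for 4 and 3 of the 4 genes respectively, beside 18.7% and 18.4% of all genes. MinE07 against C36 called 0 of 4 in limma (0.0364%), with 1 gene, SLC34A2, at an unadjusted p under 0.05, as had 10.2% of all genes. The 2 H820 MinE07 libraries with the lowest summed FPKM are part of the MinE07 values, and the part of that in the MinE07 differences was not tested. Rescaling all libraries by medians of ratios left these 3 counts as they were. Without the filter on low values no call remained among the 4 genes (NKX2-1 at adjusted p = 0.086 with MinE07 and 0.0668 with C36, SLC34A2 at 0.0627 with MinE07).

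**Figure D4:**
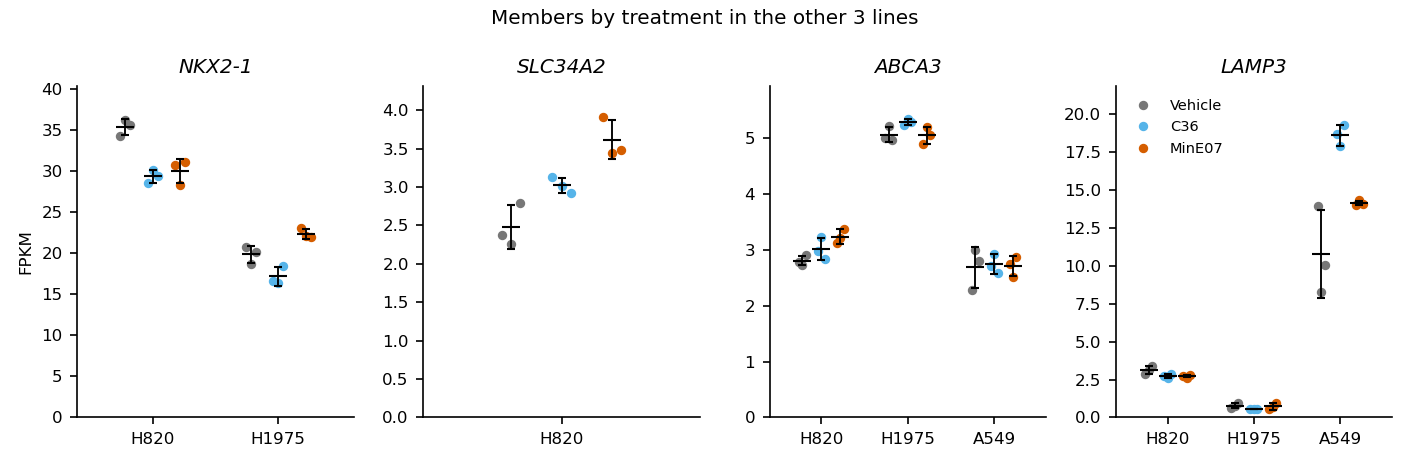
FPKM by treatment for the genes that were detected outside H3255, with 1 point per library, a horizontal bar at the mean and error bars of 1 SD (n = 3). NKX2-1 is lower with both aptamers than with vehicle in H820 and highest with MinE07 in H1975, SLC34A2 climbs from vehicle through C36 to MinE07 in H820, and LAMP3 in A549 is highest with C36.

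In A549, LAMP3 and ABCA3 were tested, and LAMP3 was called once, between C36 and vehicle. Its libraries read 13.9, 8.27 and 10.1 FPKM with vehicle, 18.7, 17.9 and 19.3 with C36, and 14.0, 14.3 and 14.1 with MinE07. C36 lay above MinE07 and MinE07 above vehicle, without overlap, and the spread was widest in vehicle. LAMP3 rose by 0.79 ± 0.153 between vehicle and C36 (SE, adjusted p = 0.0267 in limma), where 1 of 2 genes was called beside 6.05% of 13422 genes. The call was lost on leaving out any C36 library or vehicle replicate 3, with changes of 0.76 to 0.82 and adjusted p of 0.0819 to 0.106, and with a block for the replicate number (adjusted p = 0.0527). LAMP3 with MinE07 was 0.41 above vehicle (adjusted p = 0.296), which became 0.60 (adjusted p = 0.00708) without vehicle replicate 1, and was -0.38 against C36 (adjusted p = 0.437). MinE07 against vehicle called 0 of 2 genes (background 0.216%), with 1 at an unadjusted p under 0.05, as had 13.9% of all genes. MinE07 against C36 called 0 of 2 and no gene in A549 at all (0%), where 1454 genes (10.8%) had an unadjusted p under 0.05. ABCA3 in A549 had group means of 2.69 to 2.74 FPKM. NKX2-1 did not exceed 0.0471 FPKM in any A549 library, whatever the treatment.

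Interaction contrasts in the fit of all 36 libraries compared the lines' changes between MinE07 and C36. For ABCA3, the change in H3255 exceeded that in H1975 by 0.69, in A549 by 0.64 and in H820 by 0.55, each ± 0.0814 (SE, adjusted p = 3.14e-07, 7.36e-07 and 1.29e-05 in limma). For NKX2-1, H3255 exceeded H820 by 0.32 (adjusted p = 0.000536) and H1975 exceeded H820 by 0.34 (adjusted p = 0.000817), while H3255 and H1975 were -0.03 apart (95% interval -0.16 to 0.10, adjusted p = 0.836). For LAMP3, H3255 exceeded A549 by 0.77 (adjusted p = 0.000679), and its difference from H820 of 0.38 was not called (adjusted p = 0.0973). The share of all genes called was 25.2% for H3255 against A549, 15.2% against H1975 and 18.9% against H820, and 7.32% for H1975 against H820. With a pseudocount of 0.1 the NKX2-1 contrasts kept their size (0.32 and 0.35) and lost their calls (adjusted p = 0.0681 and 0.0822). Contrasts for genes near 0 in 1 of the lines restate the change in the other line and are not listed.

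More of the other alveolar type 2 genes, 22 of 23 listed names being in the files, were likewise expressed in H3255 than elsewhere. There 11 had a vehicle mean of at least 1 FPKM, against 7 in H820, 6 in H1975 and 7 in A549. Not every gene followed this order. IL18 reached that level in H820, H1975 and A549 but not in H3255, and LRRK2 reached it in A549 only. SFTA2, a secreted surfactant-associated protein gene, had 125.5 ± 11.4 FPKM in H3255 and at most 0.0899 on average elsewhere. LPCAT1, the acyltransferase that makes the main surfactant phospholipid, had 342.4 ± 3.46 in H3255, against 109.4 ± 3.02, 80.5 ± 3.25 and 16.7 ± 0.409 in H1975, H820 and A549 respectively, and the mucin MUC1 had 161.2 ± 4.64 in H3255 and 10.6 ± 0.558 or less elsewhere (SD, n = 3). With MinE07 against C36 in H3255 this list split, with 6 of 11 tested genes called higher (16.6% of all genes) and 4 called lower (20.1%) and a median of 0.22. FOLR1, a folate receptor, rose by 0.70 (adjusted p = 3.06e-05 in limma) and SUSD2, a surface marker of type 2 cells, by 0.51 (adjusted p = 9.63e-06). MFSD2A, a lysophospholipid transporter, fell by 1.17, from 26.5 ± 0.967 to 11.5 ± 0.471 FPKM (log2 change -1.17, adjusted p = 3.43e-08), and CTSH, a protease that helps to process surfactant protein precursors, changed by -0.25 in H3255 and by 0.62 in H1975 (adjusted p = 0.000587 and 0.000436). The interaction contrast separated the changes of CTSH in those lines (H3255 minus H1975 -0.87 ± 0.0858, SE, adjusted p = 1.34e-08 in limma). Also in H1975, 3 of 6 tested genes of the list were called higher (8.89% of all genes) and 1 was called lower (11.1%). SFTA3, a neighbour of NKX2-1 in the genome, rose by 0.42 (adjusted p = 0.00341 in limma), and ETV5 changed by -0.46 (adjusted p = 6.13e-05). In H820 and A549 none of the 7 and 8 genes tested was called in limma between MinE07 and C36 (0.0364% and 0% of all genes). Of these genes, 3 and 1 had an unadjusted p under 0.05, beside 10.2% and 10.8% of all genes.

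Lung epithelial transcription factors also moved in both directions between MinE07 and C36 in H3255, with a median of 0.08. Of 14 tested, 7 were called higher (16.6% of all genes) and 5 lower (20.1%). CEBPA rose by 0.47 (adjusted p = 9.7e-05 in limma) and FOXA1 by 0.45 (adjusted p = 9.63e-06), whereas FOXA2 changed by -0.34 (adjusted p = 0.00155) and CEBPD by -0.28 (adjusted p = 0.00162). These are factors that act with NKX2-1 at surfactant genes. Of 12 such genes in H1975, 3 were called higher (8.89% of all genes) and 3 were called lower (11.1%), with SOX2 at 0.40 (adjusted p = 0.00244), ELF3 at 0.36 (adjusted p = 0.000379), ETV5 at -0.46 (adjusted p = 6.13e-05) and SOX9 at -0.17 (adjusted p = 0.00602). Among genes of surfactant lipid synthesis in H3255, 2 of 13 were called higher, beside 16.6% of all genes, and 5 were called lower, beside 20.1%, with a median of -0.04, beside -0.01. LPCAT1 rose by 0.27 (adjusted p = 7.99e-05, 1 further copy summed), and SCD, the stearoyl desaturase, changed by -0.32 (adjusted p = 9.3e-06). In every line, 13 of the 14 listed genes of surfactant lipid synthesis had a vehicle mean of at least 1 FPKM. LPCAT1 was highest in H3255, but SCD had 73.6 ± 0.909 FPKM there against 321.2 ± 13.3 in A549 (SD, n = 3). ACLY, of the same list, had 41.6 ± 0.753 in H3255 against 120.5 ± 4.06 in A549.

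Markers of other cell types were present in H3255 as well. HOPX, which marks alveolar type 1 and transitional cells, had 197.0 ± 6.83 FPKM in H3255 and 1.082 ± 0.156 or less elsewhere (SD, n = 3). IGFBP2, of the same type 1 list, was also highest in H3255, at 149.2 ± 1.19, against 105.3 ± 5.61 in A549, 52.1 ± 4.805 in H1975 and 19.89 ± 1.026 in H820. CAV1, of that list too, went the other way, with 1.70 ± 0.0606 in H3255 against 342.5 ± 1.89 in H1975. Of 14 type 1 genes, 8 had a vehicle mean of at least 1 FPKM in H3255, 7 in H820, 6 in H1975 and 6 in A549. The airway genes AGR2 (292.0 ± 6.55) and MUC5B (31.65 ± 0.696) and CEACAM6 (2164 ± 8.31), a cell adhesion gene of the gastrointestinal list, were also abundant in H3255. Between MinE07 and C36 in H3255, 5 of 8 type 1 genes were called higher (16.6% of all genes) and 1 lower (20.1%). CAV1 rose by 0.78 (adjusted p = 3.56e-05 in limma) and HOPX changed by -0.16 (adjusted p = 0.0384). Of 4 airway genes, AGR2 rose by 0.44 (adjusted p = 3.62e-06) and MUC5B changed by -0.41 (adjusted p = 3.34e-05), and CEACAM6 rose by 0.48 (adjusted p = 1.84e-06). Some genes of other lists thus rose beside the alveolar genes in H3255, and their part in the alveolar values was not tested. In A549, 10 of 16 gastrointestinal and hepatic genes had a vehicle mean of at least 1 FPKM, such as FGA at 29.1 ± 1.80 and HNF4A at 18.4, while HNF4A was at most 0.0226 on average in the other lines. No neuroendocrine gene reached that level outside A549, where SYP had 4.40 ± 0.104. Among 10 markers of blood, vascular and stromal cells, 2 to 3 per line reached it, such as CD68 at 71.5 ± 7.96 in A549 and COL1A2 at 6.45 ± 0.230 in H1975.

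Across the 36 libraries, the genes outside the 10 whose level was most like that of NKX2-1 included PRMT6, an arginine methyltransferase gene (Pearson r = 0.9984), GATA2-AS1 (0.9977), FBP1, a gluconeogenic enzyme gene (0.9963) and SPINT1, a protease inhibitor gene (0.9937), among 1676 genes compared. PRMT6 and FBP1 were listed at 0 on average in A549 vehicle, and PRMT6 had 10.3 FPKM in H3255, 6.27 in H820 and 4.56 in H1975. The 36 points come from 4 lines, so this likeness rests on the order of the lines and is a description.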

How the data were processed

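RNA was measured in 36 libraries (3 per group). Per the labels, libraries were poly-A selected and stranded and were read as pairs of 100 bases. The authors deposited 1 table of FPKM values per library, with 68271 entries. The submitters' processing notes name HISAT2, Cuffdiff, GRCh38.p12 and hg38, without roles or versions. Entries without a gene name (1874) and those with a repeated name (31) were left out, each at most 0.0028% of the summed FPKM. Tables were joined by name, since their row orders differ.

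Values were analysed as log2(FPKM + 0.5), so changes of low genes are understated. Genes whose mean in a fit was at least 1 FPKM were tested with limma 3.58.1 (R 4.3.3, statmod 1.5.0; trend and robust moderation), two-sided, with Benjamini-Hochberg adjustment over all genes tested and calls under 0.05. Treatments were compared within each line (9 libraries, 3 group means), and lines and interactions in 1 fit of 36 libraries with 12 group means. The procedure was tested on simulated data. Other steps used pandas 2.3.3, numpy 2.4.6 and matplotlib 3.10.9 under Python 3.11.15.

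The 10 genes and all gene lists were chosen with earlier results of these data known. The lists are other type 2 genes, lung epithelial transcription factors, type 1, surfactant lipid synthesis, airway, neuroendocrine, gastrointestinal and hepatic, and other cell type genes. Named from each were, per line, up to 2 called genes in each direction with the largest change between MinE07 and C36, and up to 3 with the highest vehicle level in any line. Likeness to NKX2-1 was ranked among genes with a group mean of at least 5 FPKM and a range of line means of at least 3 on the log2 scale. Alternatives varied the pseudocount, the filter, the scaling, the handling of copies, the moderation, the pooling of lines and a block for the replicate number, and left out each library. Promoter windows come from RefSeq (GRCh38.p14) and positions from GENCODE v29. The sequence around SFTPC and a gene among those most like NKX2-1 are not reported here.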

Additional observations from a re-analysis of the deposited data

Results flagged for a closer look

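For 3 of the alveolar genes, interaction contrasts in limma separated the lines in their change from C36 to MinE07, counting only pairs in which both lines had the gene at 1 FPKM or more. ABCA3 changed more in H3255 than in A549 (difference 0.64), H1975 (0.69) and H820 (0.55). LAMP3 moved in opposite directions, by 0.38 in H3255 and by -0.38 in A549, where it was not called (difference 0.77). In A549 the MinE07 libraries lay below the C36 libraries and above the vehicle libraries. NKX2-1 changed more in H3255 than in H820 (0.32) and more in H1975 than in H820 (0.34). In H820 the C36 libraries of NKX2-1 were themselves below vehicle, as given in the report, and so were those of H1975, without a call.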

How the results depend on the processing

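The files hold no counts, so counting error could not be given for any value, and genes with a mean under 1 FPKM in a line were not tested between treatments there. With 3 libraries per group, several calls near the threshold turned on 1 library. In H3255, the count of called genes ranged from 6 to 8 for MinE07 against C36 (7 with all libraries), from 6 to 8 for MinE07 against vehicle (8) and was 0 for C36 against vehicle when 1 library was left out. For MinE07 against vehicle it was 0 to 1 in H1975 (1), in H820 1 to 2 (2) and in A549 0 to 1 (0), and for C36 against vehicle it was 0 to 2 in H820 (1) and in A549 0 to 1 (1). Leaving out libraries of the group not compared, an alternative chosen after seeing the data, gave 6 to 7 for MinE07 against vehicle in H3255, and 0 to 1 for MinE07 against vehicle in H1975 and for C36 against vehicle in A549.

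Without the filter on low values, MinE07 against vehicle called 0 genes in H1975 and 0 in H820, and C36 against vehicle called 0 in H820 and 0 in A549. With a filter of at least 5 FPKM, MinE07 against vehicle in H820 called 1. Rescaling by medians of ratios gave 0 for MinE07 against vehicle in H1975. In 1 fit of all 36 libraries, MinE07 against vehicle called 1 in H820 and 1 in A549, and C36 against vehicle called 1 in H3255 and 1 in H1975. In that fit NAPSA in H3255 was not called against C36 (adjusted p = 0.512 in limma), nor was it without the filter (adjusted p = 0.109). The cause of these changes was not tested.

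Replicate numbers are not said to pair the samples. Correlations of same-numbered deviations ran from -0.164 to 0.246 in H3255, beside -0.246 to 0.194 for other pairs. In H820 they ran from -0.057 to 0.189, beside -0.166 to 0.137, and no line had every one over 0.1. With 9 same-numbered pairs per line, from groups of 3 libraries, these values cannot decide whether the numbers pair samples. With the replicate number as a block, C36 against vehicle in A549 called 0 genes (LAMP3 at an adjusted p of 0.0527), and no other count of called genes moved by over 1.5 times.

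Of 1425 alternative values of single genes, 24 changed sign, none of them called with all libraries. Rescaling gave SFTPB -0.0147 and SLC34A2 -0.0262 for C36 against vehicle in H3255, and the block gave LAMP3 0.0082 for H3255 against H820. The others left out 1 library, and the ranges over libraries left out spanned 0. ABCA3 ran from -0.0487 to 0.0319 in A549 for MinE07 against C36, from -0.0811 to 0.0826 against vehicle, and from -0.0687 to 0.0950 for C36 against vehicle. In vehicle it ran from -0.0803 to 0.0834 for H3255 against A549 and from -0.0372 to 0.1266 for H820 against A549, and in H1975 from -0.0221 to 0.0168 for MinE07 against vehicle. For C36 against vehicle in H3255, SFTPB ran from -0.0284 to 0.0434, NAPSA from -0.0211 to 0.0202, SLC34A2 from -0.0022 to 0.0098 and LAMP3 from -0.0451 to 0.0248. LAMP3 also ran from -0.0778 to 0.0242 for H3255 against H820 and from -0.0298 to 0.0317 in H820 for MinE07 against C36, and the NKX2-1 difference between H3255 and H1975 ran from -0.0801 to 0.0028.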
